A study of Mus musculus with 6 samples.

Results

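The 10 intraepithelial T cell genes described here were *Cd3d*, *Cd3e*, *Cd3g*, *Cd8a*, *Cd4*, *Itgae*, *Gzma*, *Gzmb*, *Cd244a* and *Klrd1*. They were taken by name as genes of the lymphocytes that lie between the epithelial cells of the colon, and all 10 were found among the 18049 genes of the crypt table. RNA-Seq of total RNA covered colonic crypts from 6 mice of a Lynch syndrome model, with 3 mice in the control group and 3 in the GSK503 group. GSK503 is a small-molecule inhibitor of EZH2, the enzyme that methylates lysine 27 of histone H3. Control mice received 20% captisol in PBS. Treated mice received GSK503 at 200 μg/kg body weight in PBS, so that the vehicle as described differed between the groups. Both were given by tail vein. The injections are described as biweekly, which is read here as 2 injections per week. All 6 mice were C57BL/6J animals with a *Villin-Cre* transgene and a humanized knock-in of *TgfβRII*, and were kept on a Western-style diet. The *Villin* promoter drives Cre in the intestinal epithelium, so lymphocytes are not the cells in which this Cre acts. The age of each animal is not given in the sources used here.

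Intraepithelial lymphocytes are mostly T cells that carry the CD3 complex, often with the CD8 coreceptor, and they are held in the epithelium by the integrin αEβ7 (CD103), which binds E-cadherin on epithelial cells. Many of them store granzymes, serine proteases that are released into a target cell together with perforin, and they carry receptors also found on natural killer (NK) cells. The members therefore fall into the CD3 chains (*Cd3d*, *Cd3e*, *Cd3g*), the coreceptors (*Cd8a*, *Cd4*), the integrin chain *Itgae*, the granzymes (*Gzma*, *Gzmb*) and the NK-type receptors (*Cd244a*, *Klrd1*). None of these genes belongs to intraepithelial T cells alone, since *Itgae* is also made by dendritic cells, *Cd4* by helper T cells and some macrophages, and *Cd244a* by NK and myeloid cells. In bulk RNA, fewer cells of a type and less RNA per cell cannot be told apart.

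Values are CPM (a gene's estimated counts relative to library size) that the authors scaled with TMM, a method that evens out differences in library composition. The libraries held between 108162846 and 135085023 estimated counts, and 3 counts corresponded to between 0.0228 and 0.0271 CPM, a floor that covers counting error only. The members rested on between 14 and 2092 estimated counts per library. The summed level of the 10 members was 23.7 to 46.8 CPM, against 8273 to 10460 CPM for 5 epithelial markers. The members were thus far below these markers, but such sums do not measure the share of T cell RNA. The sex-linked genes separated the groups completely. *Xist* was between 0.419 and 0.936 CPM in control mice and between 825 and 1236 CPM in treated mice, and the Y-linked genes *Ddx3y*, *Kdm5d*, *Uty* and *Eif2s3y* were high in every control mouse and at most 1.08 CPM in every treated mouse. Treatment and sex cannot be told apart in any comparison below.

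No member passed an adjusted p of 0.05 in limma's test over all 16670 genes with at least 0.1 CPM in at least 3 mice, a threshold that 0.642% of all genes passed. At an unadjusted p of 0.05, 2 of 10 members passed, *Gzmb* (lower in treated mice) and *Cd244a* (higher), against 13.3% of all genes. With limma-voom on recovered counts, 0 members passed the adjusted threshold and 2 the unadjusted one. All 3 treated mice lay below all 3 control mice for 1 of 10 members, *Gzmb*, where 9.22% of all genes did so, and above them for 1 of 10, *Cd244a*, where 9.84% of all genes did so. These shares are near the background for so few genes. The log2FC (GSK503 minus control, on the scale of log2(CPM + 0.1)) was below 0 for 8 of 10 members with a median of -0.26, compared with 51.1% of all genes and a median of -0.01. The 8 include *Klrd1*, whose log2FC of -8.82e-05 was practically 0. Without control mouse 1, the library with the highest value for 6 of the 10 members, 5 members were below 0.

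The promoters of *Gzmb* and *Cd244a* are shown because these were the members whose groups did not overlap, in opposite directions. Each run holds the 250 bases before and the 50 bases after the RefSeq start site (sequences of the GRCm38.p6 table, each found as an exact single match on its chromosome in GRCm39), written 5′ to 3′ on the strand of the gene. Capitals mark matches to TGTGGT (RUNX), TGANTCA (AP-1) or TCACAC (T-box), each searched on both strands. RUNX, AP-1 and T-box factors are known regulators of T cell effector genes. The *Gzmb* window lies at chr14:56499742-56500041 on the minus strand and the *Cd244a* window at chr1:171386511-171386810 on the plus strand of GRCm39. The gene positions given below come from GENCODE vM39, whose starts differ from these RefSeq starts. Its *Gzmb* begins at chr14:56499717 on the minus strand, so the whole *Gzmb* window lies before that gene. Its *Cd244a* begins at chr1:171386708, inside the *Cd244a* window.
Gzmb: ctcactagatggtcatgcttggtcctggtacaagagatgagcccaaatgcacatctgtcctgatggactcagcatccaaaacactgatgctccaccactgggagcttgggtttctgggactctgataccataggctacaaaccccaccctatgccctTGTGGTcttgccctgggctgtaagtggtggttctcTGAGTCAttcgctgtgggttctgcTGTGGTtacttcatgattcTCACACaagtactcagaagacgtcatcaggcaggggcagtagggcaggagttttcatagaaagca
Cd244a: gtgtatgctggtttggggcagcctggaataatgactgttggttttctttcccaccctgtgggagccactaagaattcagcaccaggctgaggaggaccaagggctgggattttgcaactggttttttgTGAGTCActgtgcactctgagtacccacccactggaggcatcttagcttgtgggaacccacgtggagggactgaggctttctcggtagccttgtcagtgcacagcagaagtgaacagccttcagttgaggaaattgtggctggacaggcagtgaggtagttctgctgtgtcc
The *Gzmb* window held 2 matches to the RUNX letters, beginning at bases 158 and 217 of the window, 1 to the AP-1 letters at base 193 and 1 to the T-box letters at base 236, and none of these overlapped. The *Cd244a* window held 1 AP-1 match at base 129 and no match to the other letters in these 300 bases. Of 27025 mouse promoters of the same length, 16.9% held the RUNX letters, 7.9% the AP-1 letters and 14.4% the T-box letters. These matches describe the letters only, and no binding was measured here.

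Levels of different members were compared per kilobase of annotated exon (GENCODE vM39, all exons of a gene merged), as the mean over the 6 mice. The granzymes stood highest, *Gzmb* at 3.70 and *Gzma* at 2.52 CPM per kb, followed by *Itgae* at 1.53, *Cd8a* at 1.12 and *Cd3g* at 0.958 CPM per kb. The remaining members were *Cd3e* at 0.375, *Cd244a* at 0.327, *Klrd1* at 0.238, *Cd3d* at 0.198 and *Cd4* at 0.185 CPM per kb. *Cd3g* was above *Cd3e* in 6 of 6 mice, and the neighbours from *Gzmb* down to *Cd3g* kept this order in 5 of 6 mice each. From *Cd3e* to *Cd4* the neighbours held their order in only 3 or 4 of 6 mice. *Cd3e* was above *Cd244a* in every control mouse and below it in every treated mouse. In treated mouse 1 the gap was narrow (0.293 against 0.304 CPM per kb), and this reversal was not tested. The later neighbours, from *Cd244a* down to *Cd4*, held their order in 4 of 6 mice and were not told apart. The CD3 chains are assembled into 1 complex at the cell surface, and their RNA levels per kilobase were unequal in every library, with *Cd3d* below *Cd3g* throughout. A merged exon length can exceed that of the main transcript, so levels per kilobase depend in part on the annotation.

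**Figure D1:**
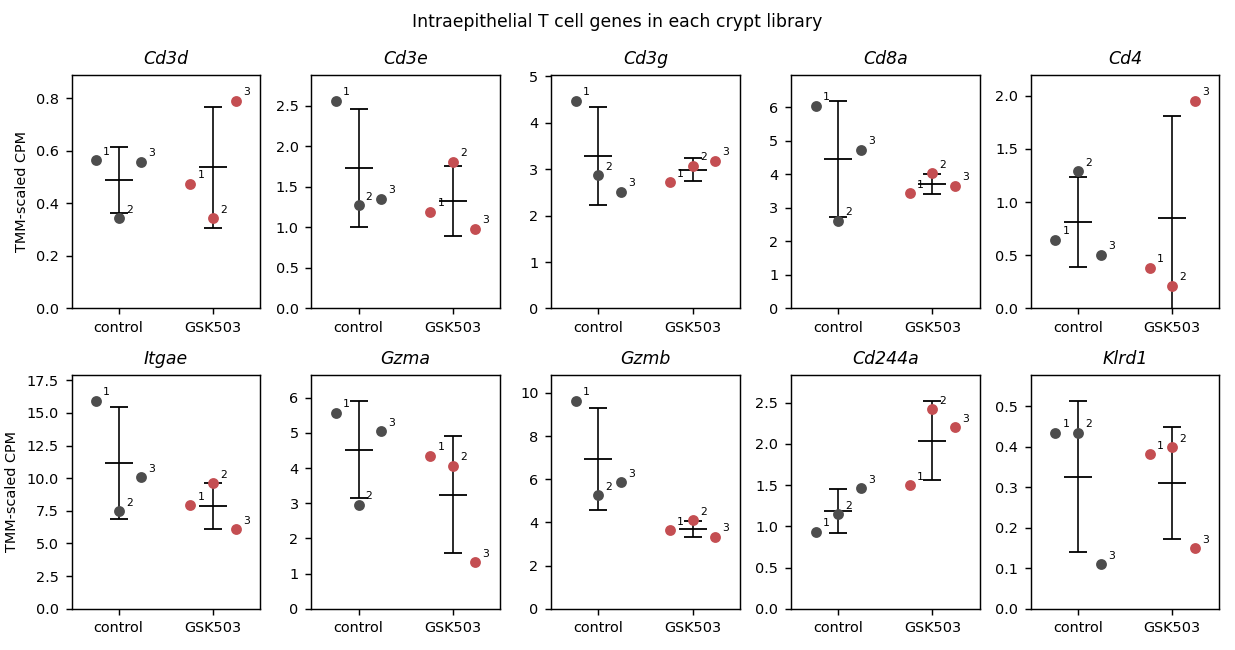
TMM-scaled CPM of each member (y axis, starting at 0) in the 3 control (grey) and 3 GSK503 (red) mice, numbered by replicate, with the mean (horizontal mark) and SD (bars, n = 3; the lower bar of *Cd4* in GSK503 mice runs below the axis). The 3 treated mice lay below all controls for *Gzmb* and above them for *Cd244a*, while the groups overlapped for the other 8 members.

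The CD3 chains, the signalling subunits of the T cell receptor complex, did not separate the groups. They lie side by side on chromosome 9 of GRCm39, *Cd3g* at chr9:44880870-44891735, *Cd3d* at chr9:44893083-44899173 and *Cd3e* at chr9:44910037-44920925. *Cd3e* was 2.57, 1.28 and 1.35 CPM in control mice 1, 2 and 3 and 1.20, 1.81 and 0.982 CPM in treated mice 1, 2 and 3. *Cd3g* was 4.48, 2.87 and 2.51 CPM in the controls and 2.71, 3.07 and 3.18 CPM after GSK503. *Cd3d* was 0.563, 0.344 and 0.559 CPM in the controls and 0.475, 0.343 and 0.790 CPM in treated mice. The groups overlapped for all 3 genes, with control mouse 1 the highest for *Cd3e* and *Cd3g* and treated mouse 3 the highest for *Cd3d*. The log2FC was -0.33 for *Cd3e* (95% confidence interval -1.12 to 0.46), -0.09 for *Cd3g* (-0.65 to 0.47) and 0.07 for *Cd3d* (-0.82 to 0.97), with limma adjusted p of 0.739, 0.917 and 0.959. The interval of *Cd3e* does not exclude a level in treated mice below 1/2 of that in controls. *Cd3e* overlaps the predicted genes *Gm48719* on the other strand and *Gm48720* on its own strand, and reads of the shared stretch could have been divided among them.

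Among the coreceptors, *Cd8a* (chr6:71350411-71356157) encodes the CD8 α chain, which forms αα or αβ dimers on cytotoxic and intraepithelial T cells. It was 6.06, 2.61 and 4.74 CPM in control mice and 3.43, 4.04 and 3.66 CPM in treated mice. The treated mice lay inside the range of the controls, whose SD of 1.74 CPM (n = 3) was far above the 0.306 CPM of the treated group. The log2FC was -0.19 (95% confidence interval -0.83 to 0.46, limma adjusted p = 0.833). *Cd8b1*, the β chain, was 3.53, 1.09 and 1.50 CPM in control mice and 1.33, 1.62 and 1.21 CPM in treated mice, a log2FC of -0.36 (adjusted p = 0.753 in limma), and control mouse 1 was again the highest.

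*Cd4* (chr6:124841655-124874758), the coreceptor of helper T cells, varied most among the members. It was 0.647, 1.29 and 0.504 CPM in control mice 1, 2 and 3 and 0.381, 0.215 and 1.96 CPM in treated mice 1, 2 and 3. Both the highest and the lowest value came from the treated group, and the log2FC was -0.34 with a wide 95% confidence interval of -1.81 to 1.14 (limma adjusted p = 0.876). Without treated mouse 3 the log2FC was -1.14, and without control mouse 2 it was 0.01. The same 2 libraries had the highest average log2 level of smooth muscle, macrophage and fibroblast markers.

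*Itgae* (chr11:72981409-73039917) encodes αE of the integrin that anchors lymphocytes to E-cadherin. It was 15.9, 7.49 and 10.1 CPM in control mice and 7.91, 9.62 and 6.07 CPM in treated mice. Control mice 1 and 3 lay above all treated mice while control mouse 2 fell between them, and the log2FC was -0.45 (95% confidence interval -1.05 to 0.14, limma adjusted p = 0.507). Its partner chain *Itgb7* was 3.61 to 5.85 CPM in control mice and 3.43 to 4.37 CPM in treated mice, with a log2FC of -0.17 (limma adjusted p = 0.808). *Cdh1*, the gene of E-cadherin, was 1111 to 1292 CPM in control mice and 1210 to 1227 CPM in treated mice (log2FC 0.05, limma adjusted p = 0.892). *Haspin* is encoded on the other strand within *Itgae*.

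The granzymes had the most negative log2FC among the members, and neither passed the adjusted threshold. *Gzmb* (chr14:56496295-56499717), the granzyme that cleaves after aspartate and activates caspases in target cells, was 9.64, 5.26 and 5.88 CPM in control mice and 3.64, 4.09 and 3.34 CPM in treated mice. The highest treated value was below the lowest control value, and control mouse 1 stood well above the other two. The group means were 6.93 ± 2.37 CPM and 3.69 ± 0.381 CPM (SD, n = 3 mice each), and the log2FC was -0.84 (95% confidence interval -1.38 to -0.31), with an unadjusted p of 0.00575 and an adjusted p of 0.158 in limma. Without control mouse 1 the log2FC was -0.58, and over 15 alternatives the limma adjusted p lay between 0.0749 and 0.377. *Gzma* (chr13:113230355-113237524), a tryptase-type granzyme, was 5.57, 2.96 and 5.05 CPM in control mice and 4.35, 4.07 and 1.32 CPM in treated mice. Treated mouse 3 was far below the other 5 mice and the other 2 treated mice lay within the control range. The log2FC of *Gzma* was -0.59 (95% confidence interval -1.55 to 0.38, limma adjusted p = 0.602), and -0.05 without treated mouse 3.

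Of the NK-type receptors, *Cd244a* (chr1:171386708-171437315) encodes 2B4, a SLAM-family receptor that binds CD48. From the same mice, the study named this gene as an immune gene that was higher after GSK503. It did so in its account of genes that it called significant with edgeR. The limma test used here is a different one, and *Cd244a* did not pass its adjusted threshold. *Cd244a* was 0.936, 1.15 and 1.46 CPM in control mice and 1.50, 2.42 and 2.20 CPM in treated mice. The groups did not overlap, although control mouse 3 and treated mouse 1 lay close together. The log2FC was 0.73 (95% confidence interval 0.07 to 1.40), with an unadjusted p of 0.0336 and an adjusted p of 0.329 in limma, and its adjusted p over 15 alternatives lay between 0.273 and 0.702. *Cd244a* overlaps *Ly9*, another SLAM-family gene, on the other strand. *Ly9* was 0.346 to 0.823 CPM in control mice and 0.475 to 0.948 CPM in treated mice (log2FC 0.13, limma adjusted p = 0.933). The library kit marks strand, but the strand setting of the counting is not given in the sources used here.

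*Klrd1* (chr6:129568677-129575738) encodes CD94, which pairs with NKG2 receptors on NK cells and some CD8 T cells. It was 0.434, 0.434 and 0.110 CPM in control mice and 0.381, 0.398 and 0.150 CPM in treated mice. In both groups 2 mice were near 0.4 CPM and mouse 3 was lower, and the 95% confidence interval of its log2FC ran from -1.16 to 1.16 (limma adjusted p = 1.0). *Klrc1*, which encodes the NKG2A partner of CD94, was 0.291 to 0.716 CPM in control mice and 0.322 to 0.790 CPM in treated mice, with a limma adjusted p of 0.996.

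**Figure D2:**
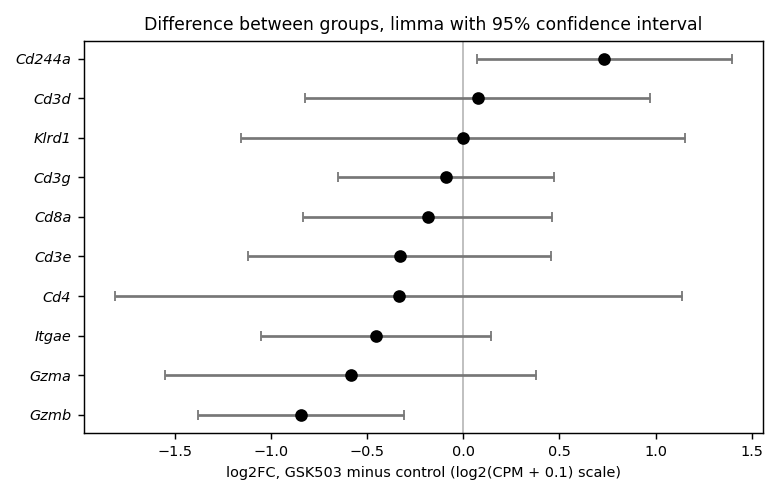
log2FC of each member between GSK503-treated and control mice (x axis, log2(CPM + 0.1) scale, n = 3 mice each) with the 95% confidence interval from limma. The intervals of *Gzmb* (-1.38 to -0.31) and *Cd244a* (0.07 to 1.40) lie off 0, but neither passed an adjusted p of 0.05, and the intervals of the other 8 members span 0.

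To set the other members against CD3 RNA, each was divided by the sum of *Cd3d*, *Cd3e* and *Cd3g* in the same library. To each numerator and denominator 0.1 CPM was added, which leaves the ratio nearly free of library scaling. Because cells other than T cells also make some members, such a ratio is not a level per T cell. With 3 mice against 3, no exact two-sided permutation p can fall under 0.1, and 8 ratios were tested. The *Gzmb* to CD3 ratio was 1.26, 1.17 and 1.32 in control mice and 0.835, 0.788 and 0.680 in treated mice. The control mice were close to each other although control mouse 1 had the highest *Gzmb* of all, and the groups did not overlap (log2 difference -0.71, exact permutation p = 0.1, adjusted p = 0.4 over the 8 ratios). Leaving out single mice moved this difference from -0.77 to -0.62. The *Cd244a* to CD3 ratio was 0.135, 0.272 and 0.346 in control mice and 0.357, 0.473 and 0.456 in treated mice. It was higher in all 3 treated mice, narrowly over control mouse 3 (log2 difference 0.87, exact permutation p = 0.1, adjusted p = 0.4), and leaving out single mice moved it from 0.47, without control mouse 1, to 1.15.

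The *Cd8a* to CD3 ratio was 0.799, 0.592 and 1.07 in control mice and 0.788, 0.777 and 0.745 in treated mice, so that the 3 treated mice were nearly equal and lay within the control range (log2 difference -0.05, exact permutation p = 0.7). The *Cd8a* to *Cd4* ratio spread from 1.95 to 8.24 in control mice and from 1.83 to 13.1 in treated mice, and it was lowest in control mouse 2 and treated mouse 3. The exact permutation p of this ratio was 1.0, and those for *Cd4*, *Itgae*, *Gzma* and *Klrd1* over CD3 were 0.9, 0.3, 0.7 and 0.9. The *Gzma* to CD3 ratio was 0.282 in treated mouse 3 and between 0.667 and 1.14 in the other 5 mice.

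**Figure D3:**
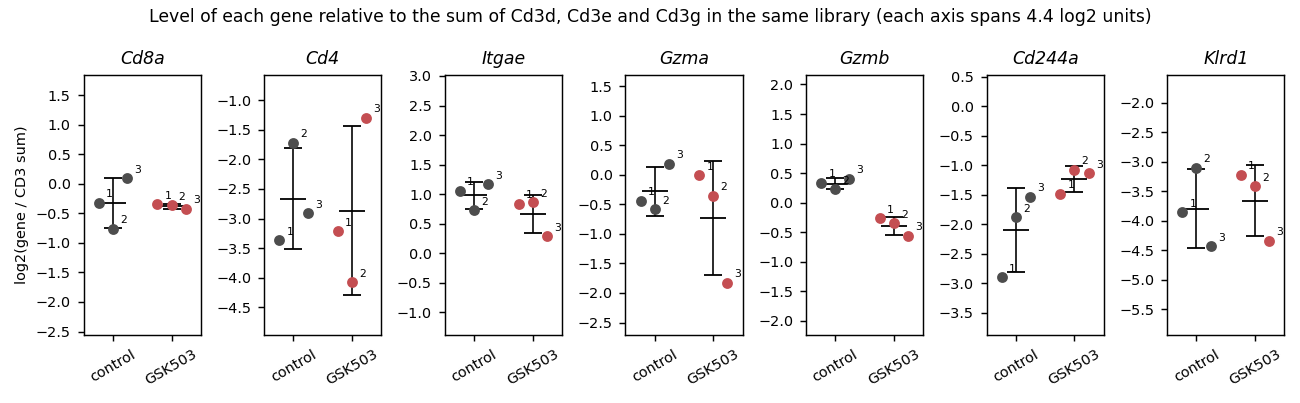
log2 ratio of 7 members to the sum of *Cd3d*, *Cd3e* and *Cd3g* in the same library (y axis, the same span in each panel) in the 3 control (grey) and 3 GSK503 (red) mice, numbered by replicate, with mean and SD (n = 3). The *Gzmb* ratio was between 1.17 and 1.32 in controls and between 0.680 and 0.835 in treated mice, the *Cd244a* ratio was higher in all treated mice, and the other 5 ratios overlapped.

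Other lymphocyte genes were read from 6 lists written by hand, of which 82 genes beyond the members were tested. None of the 82 passed an adjusted p of 0.05 in limma, and 5 had an unadjusted p below 0.05, a smaller share than the 13.3% of all genes. With limma-voom the counts were 0 and 2. All treated mice lay below all control mice for 7 of them and above for 3, neither share above that of all genes (9.22% and 9.84%), and their median log2FC was -0.07. Among T cell receptor chains and signalling genes, 10 of 23 had a log2FC below 0 and 13 above, with a median of 0.02. *Lck*, the kinase that phosphorylates CD3, was 4.54 to 5.89 CPM in control mice and 4.30 to 5.74 CPM in treated mice (log2FC 95% confidence interval -0.43 to 0.42). The log2FC was -0.25 for the constant chain *Trbc2* (adjusted p = 0.749 in limma) and between -0.07 and 0.08 for *Trgc1*, *Trgc2* and *Trgc4*, the constant chains of the γ receptor. The 2 genes with the smallest p in this list were *Rhoh*, a hematopoietic GTPase (log2FC -0.65), and *Grap2*, an adaptor of the receptor complex (0.30), with limma adjusted p of 0.444 and 0.486.

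Of 10 tested genes of cytotoxic granules and effectors, 6 had a log2FC below 0 (median -0.13), and all treated mice lay below all control mice for 3, where 9.22% of all genes did so. *Prf1*, which encodes perforin, the pore through which granzymes enter, was 1.08, 0.217 and 0.645 CPM in control mice and 0.119, 0.0956 and 0.208 CPM in treated mice. The groups did not overlap, although control mouse 2 and treated mouse 3 were nearly equal, and the log2FC was -1.47 (limma unadjusted p = 0.0209, adjusted p = 0.273). *Ifng*, the gene of interferon γ, was 0.632, 0.226 and 0.179 CPM in control mice and 0.119, 0.0637 and 0 CPM in treated mice (log2FC -1.41, limma adjusted p = 0.308). *Srgn*, the proteoglycan of the granule core, was the third of these (log2FC -0.41, limma adjusted p = 0.448). In contrast, *Ctsw*, a cathepsin of cytotoxic lymphocytes, had a log2FC of 0.37 and *Fasl*, the ligand of the death receptor Fas, one of 0.25, and *Nkg7* had one of -0.16, all with overlapping groups. The levels of *Prf1* and *Ifng* in treated mice were within 10 times the floor of 3 counts, and with limma-voom no gene of this list had an unadjusted p below 0.05.

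Of 19 genes of CD8 and intraepithelial lymphocytes, 14 had a log2FC below 0 (median -0.22). *Cd69*, a marker of activated and tissue-resident lymphocytes, was 1.01 to 1.81 CPM in control mice and 0.695 to 0.940 CPM in treated mice (log2FC -0.58, limma adjusted p = 0.491). *Gpr55*, a lysolipid receptor of lymphocytes, was 1.18 to 1.35 CPM in control mice and 1.78 to 2.79 CPM in treated mice (log2FC 0.85, limma adjusted p = 0.202). In the SLAM family, *Cd48*, which encodes the ligand of 2B4, was 0.407 to 1.55 CPM in control mice and 0.263 to 1.03 CPM in treated mice (limma adjusted p = 0.908), and the 2 genes with the smallest p, *Slamf1* and *Slamf8*, stood at -0.75 and -0.74 (log2FC) (adjusted p 0.495 and 0.594 in limma). Among 7 tested NK genes, 6 had a log2FC above 0 (median 0.04). *Klre1* was 0 to 0.0724 CPM in control mice and 0.104 to 0.166 CPM in treated mice (limma adjusted p = 0.461). It reached the filter of 0.1 CPM only in the treated mice, so its separation of the groups is no support for a difference. *Ncr1*, the gene of the NK marker NKp46, was at most 0.308 CPM in any library. Of 14 helper, regulatory and activation genes, 11 had a log2FC below 0 (median -0.25). *Ctla4*, which encodes an inhibitory receptor of T cells, was 0.212 to 0.461 CPM in control mice and 0.025 to 0.203 CPM in treated mice (log2FC -1.12, limma adjusted p = 0.365). Its value in treated mouse 3 was at the floor of 3 counts.

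The epithelial partners of intraepithelial lymphocytes, their ligands and attractants, had a log2FC below 0 for 12 of 16 genes (median -0.09). All treated mice lay below all control mice for 5 of them, against the background of 9.22% of genes, and none passed an adjusted p of 0.05, with 4 at an unadjusted p below 0.05 in limma and the same counts with limma-voom. *Ccl25*, the epithelial chemokine that attracts CCR9-bearing lymphocytes, was 36.8, 40.3 and 25.9 CPM in control mice and 21.9, 11.4 and 12.2 CPM in treated mice (log2FC -1.21, 95% confidence interval -1.76 to -0.66, limma adjusted p = 0.0655). *Ccl28*, the ligand of CCR10, was 172.8 to 201.6 CPM in control mice and 130.1 to 145.3 CPM in treated mice (log2FC -0.42, limma adjusted p = 0.0598). The butyrophilin-like genes *Btnl1*, *Btnl4* and *Btnl6* were the other 3 (log2FC -0.16, -0.19 and -0.38, adjusted p 0.492, 0.328 and 0.126 in limma). *Il15*, the cytokine on which many intraepithelial lymphocytes depend, was 4.83 to 5.59 CPM in control mice and 5.15 to 5.64 CPM in treated mice, a log2FC of 0.05 with a 95% confidence interval of -0.31 to 0.40.

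Markers of some other cells of the mucosa differed widely between libraries. Smooth muscle markers summed to 20.9, 90.1 and 46.2 CPM in control mice and 4.52, 4.26 and 122 CPM in treated mice, and B and plasma cell markers to 34.1, 76.5 and 22.7 CPM and to 3.66, 1.95 and 62.7 CPM. Of the 7 B and plasma cell markers, all 7 had a log2FC below 0, and *Cd79a* and *Mzb1* were listed at 0 in treated mouse 2. Macrophage markers summed to between 89.8 and 124 CPM in control mice and between 62.0 and 116 CPM in treated mice, and all 9 had a log2FC below 0. Treated mouse 3 was the highest of the treated mice in each of these lists. *Cd4* was also highest in treated mouse 3 among the treated mice. The centred log2 values of *Cd4* over the 6 mice differed from the macrophage average by a root mean square of 0.368 and from the fibroblast average by 0.346, but from the average of the 3 CD3 genes by 0.937, where *Cd4* itself varied by 0.911. This comparison for *Cd4* was chosen after its values were seen, and the part of these cells in its values was not tested.

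Among the members, *Cd8a* (0.213) and *Itgae* (0.300) were nearest to the average of the 3 CD3 genes by the same measure, followed by *Gzmb* (0.385), and the CD3 average itself varied by 0.234. A flat profile, with no variation between mice, would also lie at 0.234, so of these only *Cd8a* was nearer than a flat profile. For dendritic cells, which also make *Itgae*, 5 markers tested gave a median log2FC of 0.40, with 3 above 0 and 2 below (-0.58 to 0.59). Their centred average was 0.49 in treated mouse 3, -0.12 and -0.17 in treated mice 1 and 2, and -0.09 to -0.06 in control mice. *Batf3* and *Clec9a* were at most 0.235 CPM. Over all tested genes, the 5 whose centred values were most like the CD3 average were *Atxn7l2* (0.0393), *Zfp763* (0.0592), *Zranb3* (0.0749), *4732491K20Rik* (0.0767) and *Zfp831* (0.0812), over 6 mice. Among the marker lists, the mast cell average was the nearest (0.234), followed by the epithelial average (0.258), and neither was nearer than a flat profile. The summed level of the mast cell markers was 41.1, 12.1 and 27.2 CPM in control mice and 17.1, 17.8 and 15.6 CPM in treated mice. This sum was highest in control mouse 1, as for 6 of the members, and the part of mast cells in their values was not tested.

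**Figure D4:**
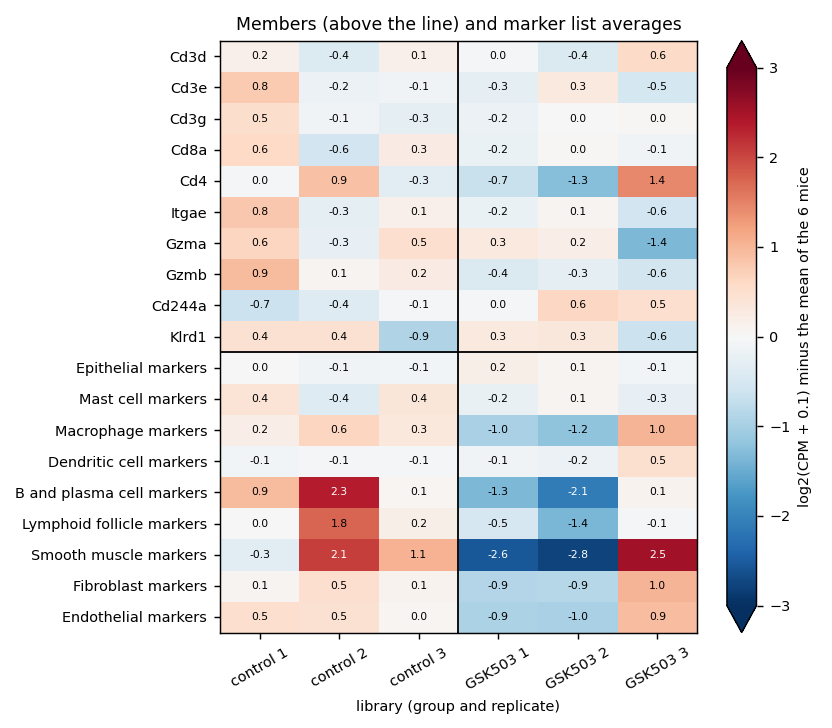
Heat map of log2(CPM + 0.1) minus the mean of the 6 mice for the 10 members (rows above the line) and the averages of 9 marker lists (rows below), with the 3 control and 3 GSK503 libraries in columns, red above and blue below the mean. *Cd4* is highest in treated mouse 3 and control mouse 2, as smooth muscle and macrophage markers are, whereas *Cd3e*, *Cd3g*, *Cd8a*, *Itgae*, *Gzma* and *Gzmb* are highest in control mouse 1.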

How the data were processed

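Total RNA-Seq of colonic crypts was deposited as 1 table of 18049 genes and 6 libraries. Per the paper's methods and the labels, the authors aligned reads to GRCm39 with STAR, estimated counts with RSEM and scaled them with TMM, so the deposited signal is an estimated count scaled to the TMM library size (CPM). Between 75.2% and 78.0% of a library's values above 0 were whole multiples (within 0.01) of a common step, which gave the estimated totals. A gene filter before deposit is not given in the sources used here.

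Groups came from the sample titles. Because these are scaled values, no count model served as the main test, and limma 3.58.1 in R 4.3.3 was run on log2(value + 0.1) with an intensity trend and Benjamini-Hochberg adjustment over 16670 genes with at least 0.1 in at least 3 mice. Ratios were compared by exact two-sided permutation tests. The limma p-values set the group difference against the spread between these libraries, moderated over all genes. The permutation p-values place the difference among all assignments of the mice to groups. The test was checked on simulated counts, with the same spread setting for every gene and large changes placed only in genes with higher means. That check does not show the power of the test for the members.

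The members and lists were chosen with earlier results of these data known. Named genes were the members, the 2 with the smallest p in each lymphocyte or partner list and the 5 most like the CD3 average by the root mean square difference of centred log2 values. Of these, 1 gene is not reported here, nor is 1 allele that all 6 mice share. All other genes were named after their values were seen. Listed genes with no row were not analysed here. Gene positions and exon lengths were taken from GENCODE vM39 (GRCm39), in which 95.36% of symbols matched a single gene. Promoters were matched by symbol for 7 of 10 members. Alternatives were other scalings, filters and pseudocounts, no trend, limma-voom, a replicate block and leaving out each mouse. Python 3.11.15, scipy 1.17.1 and matplotlib 3.10.9 were used.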

Additional observations from a re-analysis of the deposited data

How the results depend on the processing

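Over 15 alternatives (14 for *Klrd1*), no member passed an adjusted p of 0.05 with any scaling, filter, pseudocount, trend, limma-voom, block or left-out mouse, and *Gzmb*, *Cd244a*, *Itgae*, *Gzma* and *Cd3e* kept their direction throughout. The number of all genes called moved from 107 to 261 with library size alone, where the median log2FC of all genes was -0.12 and 31.8% of calls were higher instead of 77.6%, to 16 without the intensity trend, and to between 29 (without GSK503 mouse 2) and 216 (without GSK503 mouse 3) with each mouse left out, with 44, 49 and 63 without control mouse 2, control mouse 3 and GSK503 mouse 1. Between 5 and 8 members were lower with each mouse left out. The direction turned for *Cd3d* with library size alone (-0.018) and with a mouse left out (-0.20 to 0.31), for *Cd3g* (-0.26 to 0.15), *Cd8a* (-0.52 to 0.0698) and *Cd4* (-1.14 to 0.22) with a mouse left out, and for *Klrd1* with median-of-ratios scaling (0.000406), limma-voom (0.0655) and a mouse left out (-0.45 to 0.32). Ratios that turned with a mouse left out were *Cd8a* to *Cd4* (-0.54 to 0.96) and, over CD3, *Cd8a* (-0.26 to 0.16), *Cd4* (-0.99 to 0.41), *Gzma* (-0.81 to 0.10) and *Klrd1* (-0.18 to 0.48). The causes were not tested.

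With the replicate number as a block, 33 genes were called. Same-numbered mice correlated at 0.03, -0.13 and -0.12 in their deviations from the group means, and not every mouse correlated best with its own number, so the numbers were not taken as pairs. The members rested on 14 to 2092 counts per library, and the shares of counting error and of spread between mice in the intervals were not separated.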
